A study of Mus musculus with 109 samples.

Results

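The data compared here are the whole retinas of Sarm1-/- and wild-type (WT) mice that received phosphate-buffered saline (PBS) alone, the baseline of an experiment on cytokine injury. They were chosen by their sample labels (batch 2, day 2, PBS), which gave 11 of the 109 retinas of the series: 6 Sarm1-/- retinas (3 female, 3 male) and 5 WT retinas (2 female, 3 male). Each retina came from a different mouse. The WT mice were C57BL/6J, and the Sarm1-/- mice were a Sarm1-deficient line from the Jackson Laboratory, for which no Cre driver or restriction to a cell type is stated. Whether the WT mice were littermates of the Sarm1-/- mice is not stated in the sources used here. Ages were given only for all mice together, as 2 to 6 months in the methods and 2 to 4 months in the design text. All 11 eyes were injected with 2 μL of PBS into the vitreous and taken 2 days later, so the baseline is that of an injected eye. The other eye of each mouse received IL1A+TNF, the cytokine pair given to injure retinal ganglion cells (RGCs). The statistical model held 81 day 2 retinas. Besides the 11, these were 31 WT PBS retinas of batch 1 and the IL1A+TNF retinas of batch 2. WT retinas of batch 1 given IL1A alone, TNF alone or IL1A+TNF made up the rest.

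SARM1 is an enzyme that breaks down NAD+ and the central executioner of programmed axon degeneration. It is held inactive in healthy axons, where NMNAT2 keeps the ratio of NAD+ to its precursor NMN high, and it is switched on when NMNAT2 is lost after injury. SARM1 also carries the TIR domain of the Toll and interleukin 1 receptor adaptors. The question of the comparison is which retinal transcripts differ in mice without SARM1 before the cytokines are given.

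The total count per retina was 47738842 to 70099610 in the Sarm1-/- group and 42875980 to 63122762 in the WT group. Levels are given in CPM (counts as a share of the library, adjusted with TMM factors), and fold changes are log2 values of Sarm1-/- minus WT. The identity of the tissue was checked by markers: rod genes summed to 44370 to 58740 CPM in Sarm1-/- and 42210 to 55180 CPM in WT retinas, and RGC genes to 909 to 1008 and 931 to 980 CPM. Some libraries stood apart. Sarm1-/- retinas 1 and 2, both male, had the highest summed neutrophil markers (49.4 and 34.0 CPM, against 1.84 to 10.4 CPM in the other 9) and monocyte markers (19.1 and 39.8 CPM, against 1.38 to 9.85 CPM). Lens genes summed to 5593 CPM in Sarm1-/- retina 1 and 1446 CPM in WT retina 5, against 3.18 to 17.1 CPM in the other 9. Pigment epithelium genes summed to 462 to 1263 CPM in Sarm1-/- and 600 to 1678 CPM in WT retinas. They were lowest in Sarm1-/- retinas 1 and 2 (462 and 465 CPM). Their median log2 fold change was -0.331, and -0.322 with batch 2 alone, but 0.05 without Sarm1-/- retinas 1 and 2. Sarm1-/- retinas 1 and 2 were left out in an alternative fit, whose values stand beside the calls that were lost and the lists whose medians moved. In whole retina, fewer cells of a type and less RNA per cell cannot be told apart.

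Very few genes separated the genotypes. Of 20154 genes tested with limma-voom in a model of all 81 day 2 retinas, 8 had a Benjamini-Hochberg adjusted p (FDR) under 0.05, which is 0.0397% of the genes tested. Lower in Sarm1-/- retinas were 7 (0.0347%): Sarm1, Slc46a1, ENSMUSG00000079733, Vps53, Tmem181b-ps, Dynlt1b and Fam57a. Tlcd2 was the 1 gene that was higher (0.00496%). A log2 difference of 1 or more in either direction was measured in 2 of them, Sarm1 and Tlcd2. An unadjusted p under 0.05 was reached by 984 genes (4.88%), 495 of them higher and 489 lower. The next gene by p, Champ1, had an FDR of 0.116. For the 15089 genes with an average of at least 1 CPM, the 95% interval of the log2 fold change reached a median of 0.167 to each side, and for 97.7% of them it lay entirely between -1 and 1.

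The list shortened when batch 1 was left out. With the 23 batch 2 retinas alone, limma called 2 of 19668 genes (0.0102%), Sarm1 and Slc46a1, and 2.96% had an unadjusted p under 0.05. With the 11 PBS retinas alone it called 3 of 18832 genes (0.0159%), adding Vps53, with 9.32% at an unadjusted p under 0.05. edgeR's quasi-likelihood test on all 81 retinas called 7 genes (0.0347%, and 5.35% at an unadjusted p under 0.05), and DESeq2 called 8 (0.0397%, and 5.81%). All 8 fold changes kept their sign with batch 2 alone, which holds the same 11 PBS retinas. The levels of the called genes in each retina are plotted here.

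**Figure D1:**
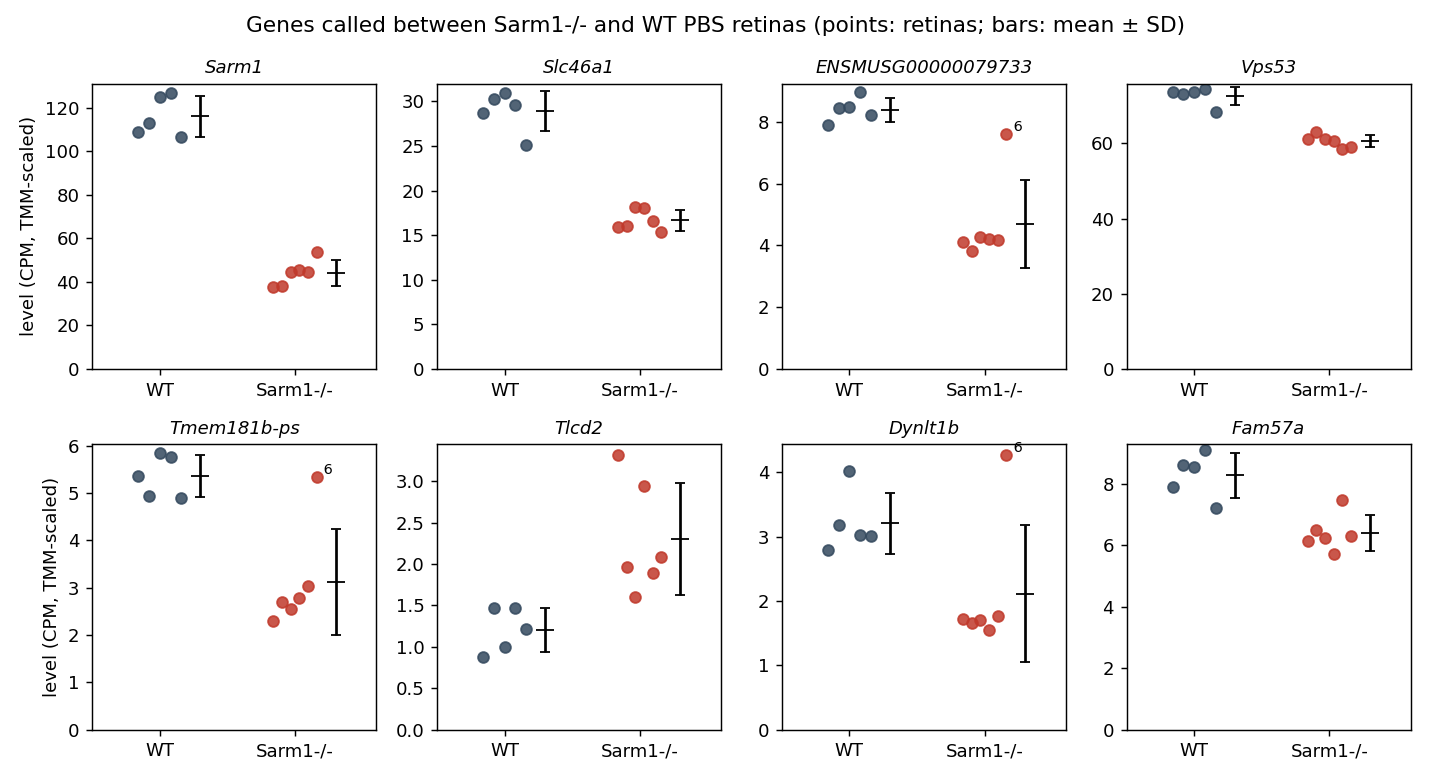
Level (CPM, axis from 0) of the 8 called genes in each WT (n = 5) and Sarm1-/- (n = 6) PBS retina, with mean ± SD beside the points. The groups did not overlap for Sarm1, Slc46a1, Vps53, Tlcd2 and, narrowly, ENSMUSG00000079733. Sarm1-/- retina 6 (marked) lay at or near the WT level of ENSMUSG00000079733, Tmem181b-ps and Dynlt1b.

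Sarm1 itself (ENSMUSG00000050132, chr11:78472330-78497754 on GRCm38, minus strand) was reduced but not absent. Its level was 37.7, 38.2, 44.6, 45.6, 44.4 and 53.6 CPM in Sarm1-/- retinas 1 to 6, and 109, 113, 125, 127 and 107 CPM in WT retinas 1 to 5. The groups did not overlap, and none of the 31 WT PBS retinas of batch 1 (89.7 to 125 CPM) reached down to the highest Sarm1-/- retina. The mean of 44.0 ± 5.801 CPM (SD, n = 6) was 38.0% of the WT mean of 116 ± 9.31 CPM (n = 5). The log2 fold change was -1.41 ± 0.08 (SE, limma FDR = 2.3e-24), and with batch 2 alone it was -1.40 (FDR = 1.23e-06). Counts per gene do not show which exons the remaining reads came from, and the extent of the deletion is not given in the sources used here. None of the 150-base stretches of the annotated Sarm1 exons occurred in another annotated gene.

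Slc46a1, the proton-coupled folate transporter, is the immediate neighbor of Sarm1 (chr11:78465697-78472059, plus strand), and the ends of the 2 genes lie 0.3 kb apart without overlap. Sarm1-/- retinas 1 to 6 had 15.9, 15.98, 18.2, 18.1, 16.6 and 15.3 CPM, and WT retinas 1 to 5 had 28.8, 30.2, 30.9, 29.6 and 25.1 CPM. Every Sarm1-/- retina was below every WT retina, those of batch 1 included (25.5 to 37.8 CPM). The mean was 57.7% of WT (log2 fold change -0.84 ± 0.06 SE, FDR = 6.36e-18, batch 2 alone -0.80 with FDR = 5.42e-08). Its relative Slc46a3 on chromosome 5 had a log2 fold change of -0.04 (FDR = 0.99).

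The stretch between 2.26 and 3.0 Mb from Sarm1 held the other 3 called genes of chromosome 11. Vps53, a subunit of the GARP and EARP complexes that tether vesicles returning to the Golgi and recycling endosomes, lies at chr11:76046226-76179647. It measured 61.2, 63.0, 61.2, 60.5, 58.5 and 59.1 CPM in Sarm1-/- retinas 1 to 6 and 73.7, 73.0, 73.6, 74.4 and 68.3 CPM in WT retinas 1 to 5. The difference was small and uniform: the groups did not overlap, and the Sarm1-/- mean was 83.5% of WT (log2 fold change -0.28 ± 0.04 SE, FDR = 7.49e-06). The FDR was 0.0316 with the 11 PBS retinas alone and 0.171 with the 23 batch 2 retinas. The other subunits of these complexes did not move with it: log2 fold changes were -0.01 for Vps50, -0.06 for Vps51, -0.02 for Vps52 and 0.04 for Vps54, and none was called.

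Fam57a (Tlcd3a, a TLC domain membrane protein, chr11:76179671-76214827) starts beside Vps53. It measured 6.15, 6.51, 6.25, 5.71, 7.48 and 6.32 CPM in Sarm1-/- retinas 1 to 6 and 7.90, 8.62, 8.55, 9.12 and 7.22 CPM in WT retinas 1 to 5. Sarm1-/- retina 5 lay above WT retina 5, so the groups overlapped. The log2 fold change was -0.40 ± 0.08 (SE, FDR = 0.00667). It was -0.37 with batch 2 alone (FDR = 0.935), -0.36 without Sarm1-/- retina 4 (FDR = 0.102) and -0.41 without Sarm1-/- retinas 1 and 2 (FDR = 0.0861), so the call was lost at values of similar size. Of the 150-base stretches in its annotated exons, 41.3% occur in Gemin4, Glod4 or Gm6330, with which it overlaps or shares sequence. Glod4 (log2 fold change 0.00) and Gemin4 (-0.03) were not called. How reads in the overlap were assigned depends on strand, and strandedness of the counting is not given in the sources used here.

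Tlcd2, a TLC domain protein of the plasma membrane (chr11:75461715-75470899), was the gene with the higher level. Sarm1-/- retinas 1 to 6 had 3.32, 1.96, 1.6, 2.95, 1.90 and 2.09 CPM, and WT retinas 1 to 5 had 0.873, 1.47, 1.00, 1.46 and 1.22 CPM. The groups did not overlap, although the lowest Sarm1-/- retina lay close to the highest WT retina. The log2 fold change was 1.05 ± 0.19 (SE, FDR = 0.000827). The call was lost in other fits at similar values, among them 0.94 with batch 2 alone (FDR = 0.706), 0.96 with the 11 retinas (FDR = 0.488), 1.01 with limma-trend (FDR = 0.0593) and 0.96 without Sarm1-/- retinas 1 and 2 (FDR = 0.0542). Batch 1 WT retinas were lower still, with a median of 0.743 CPM (0.384 to 1.78). Tlcd2 overlaps the host gene of miR-22, Mir22hg, over 4962 bases on the same strand, and Mir22hg was level between the genotypes (10.3 ± 1.01 CPM in Sarm1-/- and 10.04 ± 0.56 CPM in WT).

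The called genes of chromosome 11 all lay within 5 Mb of Sarm1, where 193 genes were tested. In that window 25 genes (12.9%) had an unadjusted p under 0.05, against 11 of 252 genes (4.37%) between 5 and 10 Mb, 19 of 300 genes (6.33%) between 10 and 20 Mb, 51 of 966 genes (5.28%) beyond 20 Mb on the same chromosome and 855 of 18067 genes (4.73%) on other chromosomes. Groups of 6 and 5 that did not overlap were found for 10 genes (5.18%) within 5 Mb, against 1.01% of all genes tested. Over the whole 10 Mb window used elsewhere to count calls, 36 of 445 genes (8.09%) had an unadjusted p under 0.05. Groups did not overlap for 12 of them tested there (2.7%). Sarm1 itself is counted in both windows, and the 5 Mb window holds every call of the chromosome. These shares are a description and were not tested. Differences away from Sarm1 were small, as the median size of the log2 fold change among genes of at least 1 CPM was 0.073 within 5 Mb and 0.060 on other chromosomes. Crk and Timm22 were not called, but their groups did not overlap. Crk, an adaptor of tyrosine kinase signaling 2.77 Mb away, measured 179 to 191 CPM in Sarm1-/- and 160.2 to 174.5 CPM in WT retinas (log2 fold change 0.14, FDR = 0.25). Timm22, a mitochondrial protein import subunit 2.06 Mb away, measured 25.2 to 26.6 and 20 to 23.9 CPM (0.19, FDR = 0.25).

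The genes nearest to Sarm1 did not follow it, apart from Slc46a1. Of the 10 nearest tested genes Slc46a1 was the 1 gene called. Vtn (vitronectin), which directly neighbors Sarm1, had 670 ± 44.6 CPM in Sarm1-/- and 669 ± 63.2 CPM in WT retinas (log2 fold change -0.02). Poldip2 (0.12, p = 0.00912, FDR = 0.826), Ift20 (0.17, p = 0.0061, FDR = 0.772) and Tmem199 (0.10, FDR = 0.989) had higher mean levels, Sebox had a lower mean (-0.08, FDR = 0.99), and all 4 had overlapping groups. The profile of the fold changes along the chromosome is plotted here.

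**Figure D2:**
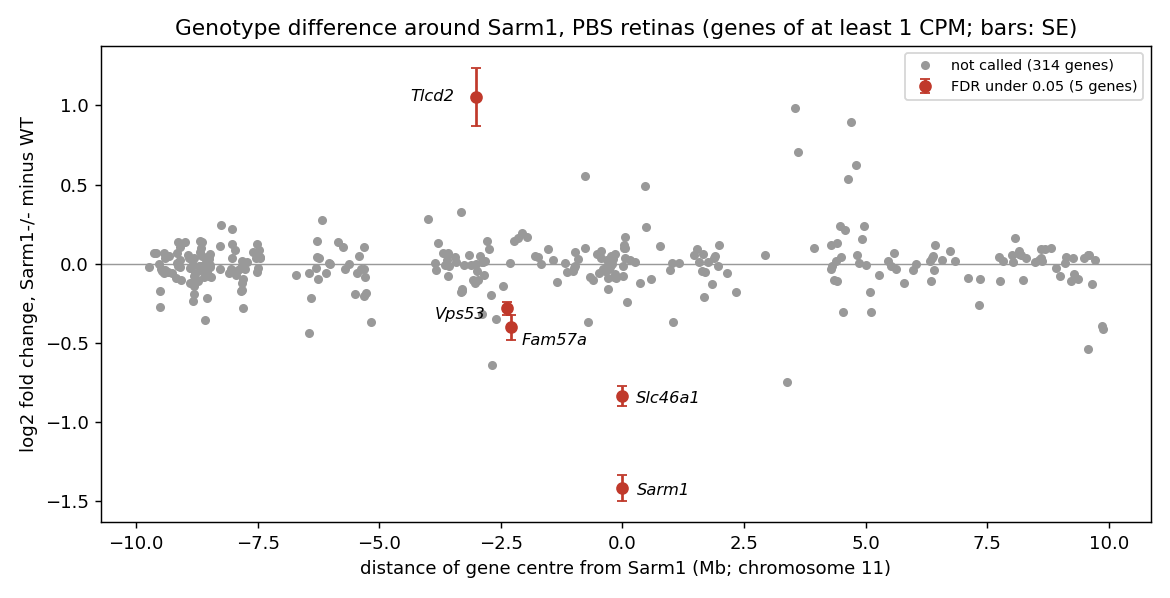
log2 fold change (Sarm1-/- minus WT, y axis) of genes of at least 1 CPM against the distance of the gene's center from Sarm1 (x axis, 10 Mb to each side on chromosome 11), red points with SE for FDR under 0.05. Slc46a1 sits beside Sarm1, and Vps53, Fam57a and Tlcd2 sit on the same side, with centers at -2.37, -2.29 and -3.02 Mb.

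A further group of called genes was on chromosome 17, at a single place and far from Sarm1. Dynlt1b encodes a Tctex-type light chain of cytoplasmic dynein, the motor of retrograde transport (chr17:6430112-6436296 on GRCm38, plus strand). Tmem181b-ps, an annotated pseudogene of Tmem181, lies next to it (chr17:6438524-6467022, minus strand). The region holds near-copies of both genes (Dynlt1a, Dynlt1c, Dynlt1f; Tmem181a, Tmem181c-ps), which limits how reads can be assigned. The coding sequence of Dynlt1b differs from those of Dynlt1a, Dynlt1c and Dynlt1f by the same single base, A21C (Dynlt1b base first, position counted from the A of the start codon). The first 60 bases in GENCODE M21 are printed to show how little separates the copies, with the differing base in capitals; the remaining 282 bases are identical.
Dynlt1b: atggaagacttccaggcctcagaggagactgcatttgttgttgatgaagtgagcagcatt
Dynlt1a: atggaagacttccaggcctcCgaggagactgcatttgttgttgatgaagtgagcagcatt
Dynlt1c: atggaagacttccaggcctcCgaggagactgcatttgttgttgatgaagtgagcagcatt
Dynlt1f: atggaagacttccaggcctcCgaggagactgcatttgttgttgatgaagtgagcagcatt
Over all annotated exons, 80.5% of the 150-base stretches of Dynlt1b occur in another gene of this family, and 23.2% of those of Tmem181b-ps occur in Tmem181a or Tmem181c-ps. Levels of Dynlt1b are therefore uncertain.

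Sarm1-/- retina 6 stood apart from its group at the chromosome 17 genes. Dynlt1b measured 1.73, 1.66, 1.71, 1.54 and 1.77 CPM in Sarm1-/- retinas 1 to 5 but 4.27 CPM in Sarm1-/- retina 6, and 2.79, 3.18, 4.02, 3.02 and 3.01 CPM in WT retinas 1 to 5. Sarm1-/- retina 6 thus lay above every WT retina of batch 2, but within the range of batch 1 WT PBS retinas (2.47 to 4.77 CPM). The other 5 lay below every WT PBS retina of both batches. Tmem181b-ps measured 2.30, 2.7, 2.55, 2.78 and 3.04 CPM in Sarm1-/- retinas 1 to 5, 5.34 CPM in retina 6, and 4.90 to 5.83 CPM in WT retinas. Retina 6 was within the WT range. Tmem181c-ps, which was not called (log2 fold change -0.53, p = 0.00103, FDR = 0.611), measured 0.961 to 1.34 CPM in 5 Sarm1-/- retinas, 1.82 CPM in retina 6 and 1.49 to 2.02 CPM in WT retinas.

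The mean of Sarm1-/- retinas 1 to 5 was 52.5% of the WT mean for Dynlt1b, 49.9% for Tmem181b-ps and 61.6% for Tmem181c-ps. Retina 6 was at 133%, 99.8% and 102% of the WT mean. Over all 6 retinas the log2 fold changes were -0.73 ± 0.13 (SE, FDR = 0.00153) for Dynlt1b and -0.80 ± 0.12 (FDR = 4.66e-05) for Tmem181b-ps. With batch 2 alone neither passed (FDR = 0.9999 and 0.807), and edgeR did not call Dynlt1b (FDR = 0.112). With batch 2 alone and without retina 6, Dynlt1b was at -0.90 (FDR = 0.113) and Tmem181b-ps at -0.995 (FDR = 0.0287). Leaving out the IL1A+TNF eye of that mouse as well gave FDRs of 0.00393 and 0.000144. The mouse was singled out by its values of these genes, so the lower FDRs are no separate support for the calls. With both batches and without Sarm1-/- retinas 1 and 2, where retina 6 is 1 of 4, neither was called, with -0.63 (FDR = 0.269) and -0.64 (FDR = 0.0855). The protein-coding paralogs were not called. Retinas 1 to 5 and retina 6 were at 93.5% and 102.6% of the WT mean for Tmem181a (p = 0.0391) and at 95.3% and 100.3% for Dynlt1c. Dynlt1a (2.64 to 3.68 CPM in Sarm1-/- and 2.71 to 3.14 CPM in WT), Dynlt1c, Dynlt1f and Tmem181a had no FDR under 0.05, and Tulp4 and Ezr, other genes within 1 Mb, had log2 fold changes of -0.003 and 0.01.

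ENSMUSG00000079733, which the tables used here give no symbol or position, divided the retinas in the same way. It measured 4.10, 3.81, 4.28, 4.22 and 4.17 CPM in Sarm1-/- retinas 1 to 5, 7.60 CPM in retina 6 and 7.90 to 8.96 CPM in WT retinas. The first 5 were at 49.0% of the WT mean and retina 6 at 90.5%. The log2 fold change over all 6 was -0.87 ± 0.11 (SE, FDR = 1.47e-07). It was not called with batch 2 alone (FDR = 0.291) and was called there without retina 6 (FDR = 0.0102) and without both eyes of that mouse (FDR = 7.95e-07). That mouse was singled out by its values of this gene, so the lower FDRs are no separate support for the call.

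The IL1A+TNF eye of each mouse gave a second measurement of these genes in a retina outside the 2 PBS groups. Those retinas entered the 81-retina fit and so helped set its batch, sex and spread terms. Dynlt1b was 3.44 CPM in the IL1A+TNF retina of the mouse of retina 6 and 1.58 to 2.19 CPM in those of the other 5 Sarm1-/- mice, against 3.004 to 3.89 CPM in WT IL1A+TNF retinas. Tmem181b-ps was 4.89 CPM against 2.16 to 2.71 CPM, and ENSMUSG00000079733 was 7.99 CPM against 3.49 to 4.13 CPM. The same mouse was therefore apart from its group in both eyes, as the plot of both retinas shows. Other mice also had genes apart in both eyes, by a factor of 1.3 from the rest of their genotype. Of 14542 genes, 10 were higher and 5 lower in the mouse of retina 6. The counts were 4 and 20 for Sarm1-/- retina 2, 17 and 27 for WT retina 4, and 0 and 0 for WT retina 1. The mouse of Sarm1-/- retina 6 had a Sarm1 level of 53.6 CPM in the PBS retina, the highest of its group but well below every WT retina.

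**Figure D3:**
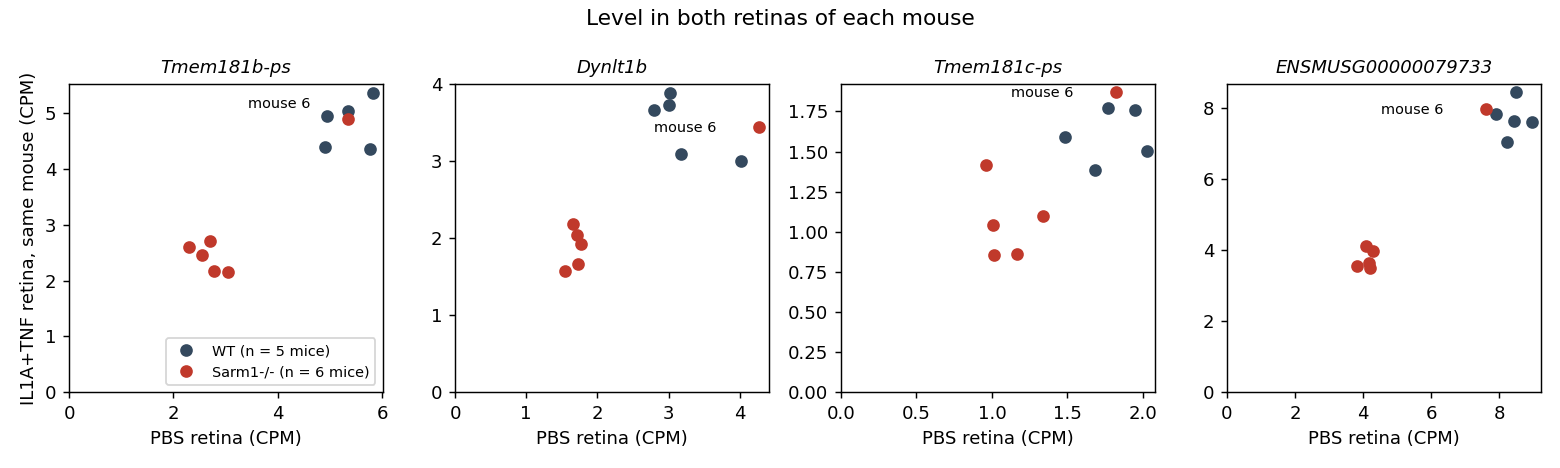
Level (CPM) in the PBS retina (x axis) and in the IL1A+TNF retina of the same mouse (y axis) for 3 genes of chromosome 17 and ENSMUSG00000079733, each point a mouse (6 Sarm1-/-, 5 WT). Mouse 6 of the Sarm1-/- group lies at or above the WT levels or close to them in each panel, apart from the other 5.

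Across the IL1A+TNF eyes, all 8 genes kept the direction they had in PBS eyes, and 7 of the 8 had an FDR under 0.05 for Sarm1-/- against WT, where 14.8% of all genes did. With batch 2 alone it was 5 of the 8, where 0.656% of all genes were called: Sarm1, Slc46a1, Vps53, Tlcd2 and ENSMUSG00000079733. These eyes belong to the same mice, except that 1 of the 6 WT IL1A+TNF retinas came from a mouse without a PBS retina among the 11. The PBS and IL1A+TNF contrasts came from the same fits and shared terms of those fits, so they are not independent. Sarm1 had a log2 fold change of -1.38 there and Slc46a1 of -0.58 (FDR = 2.67e-10). Vps53 measured 53.9 to 66.5 CPM in Sarm1-/- and 66.8 to 75.4 CPM in WT IL1A+TNF retinas, and Tlcd2 2.14 to 3.25 and 1.13 to 1.78 CPM. Fam57a was the exception (-0.09, FDR = 0.494), with 7.65 to 9.995 and 7.83 to 9.89 CPM.

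The regulators of axon degeneration other than Sarm1 were not called in PBS retinas. Of 24 listed genes 23 were tested, Sarm1 was the 1 gene called, and the median log2 fold change was 0.052, against 0.001 over all genes. Nmnat2, the enzyme whose loss activates SARM1, measured 50.6 to 56.8 CPM in Sarm1-/- and 50.5 to 58.2 CPM in WT retinas (log2 fold change 0.07, 95% interval -0.24 to 0.39). Fbxo45, which with Mycbp2 forms the ubiquitin ligase that removes NMNAT2, measured 62.8 to 68.1 and 59.4 to 62.5 CPM, so the groups did not overlap. It had a log2 fold change of 0.11 (95% interval 0.04 to 0.19, p = 0.00478, FDR = 0.72). Mycbp2 itself was at -0.08 (-0.26 to 0.09). The kinases of the axonal stress pathway lay close to 0, with Map3k12 (DLK) at -0.04 (-0.17 to 0.09), Map3k13 (LZK) at 0.05 (-0.13 to 0.23) and Mapk8 (JNK1) at 0.04 (-0.04 to 0.12). The injury-induced transcription factors Jun and Atf3 had wider intervals, 0.14 (-0.19 to 0.48) and 0.27 (-0.39 to 0.92).

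NAD metabolism was also without a called gene. None of 22 tested genes of NAD synthesis and salvage had an FDR under 0.05 with limma, the median log2 fold change was -0.017, and 1 gene had an unadjusted p under 0.05. That gene was Nampt, the rate-limiting enzyme of NAD salvage, with 83.7 to 106 CPM in Sarm1-/- and 75.6 to 91.8 CPM in WT retinas (log2 fold change 0.29, 95% interval 0.03 to 0.55, p = 0.0313, FDR = 0.973). Nmnat1 was at -0.06 (-0.19 to 0.07) and the mitochondrial NAD+ carrier Slc25a51 at 0.02 (-0.08 to 0.12). Among the 19 NAD-consuming enzymes the lowest p belonged to Tnks2 (0.07, p = 0.033, FDR = 0.987). The NAD+ hydrolases Cd38 (0.24, -0.33 to 0.80) and Bst1 (-0.12, -0.39 to 0.15), and the major nuclear ADP-ribosyltransferase Parp1 (-0.01, -0.17 to 0.15), were not called. The 95% interval lay between -1 and 1 for 20 of the 22 genes of synthesis and for 15 of the 19 NAD-consuming enzymes. The remaining genes were too low or too variable to bound the difference that closely.

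**Figure D4:**
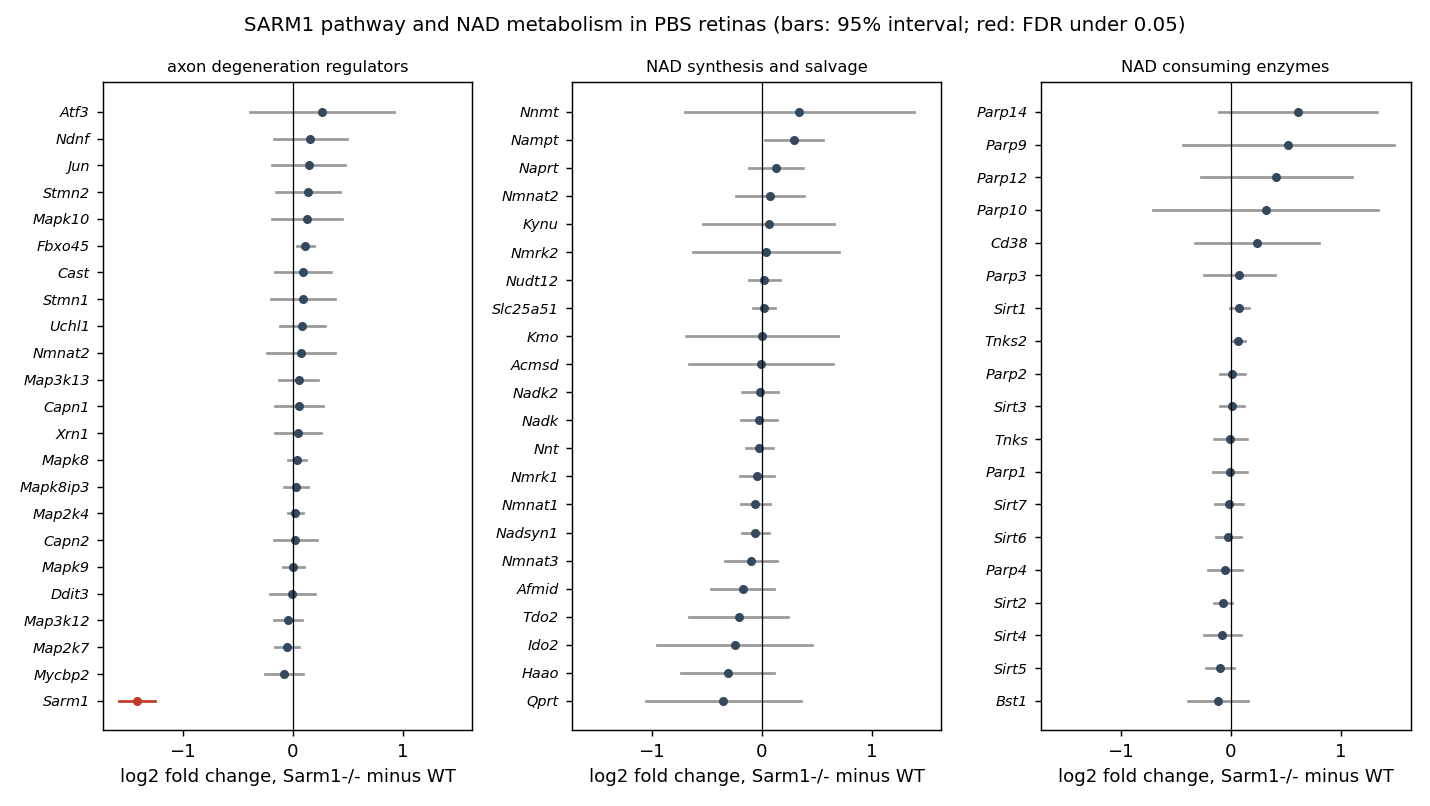
log2 fold change (Sarm1-/- minus WT, x axis) with its 95% interval for each tested gene of 3 lists, axon degeneration regulators, NAD synthesis and salvage, and NAD-consuming enzymes, 6 against 5 PBS retinas. Sarm1 (red) is the 1 gene with an FDR under 0.05.

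No gene of the RGC and synaptic lists was called. The 13 RGC markers had a median log2 fold change of 0.084 with 12 above 0, which became 0.143 with 13 above 0 without Sarm1-/- retinas 1 and 2 and 0.032 with batch 2 alone, and all 13 intervals lay between -1 and 1. Pou4f2 measured 8.22 to 11.2 CPM in Sarm1-/- and 8.51 to 10.02 CPM in WT retinas, and Thy1 130 to 142 and 126 to 141 CPM. None of 28 genes of synaptic vesicles and release was called (median 0.044). None of 14 genes of injured RGCs was called either, and their median of 0.153 became -0.016 without Sarm1-/- retinas 1 and 2. Medians of the other neuronal and Müller glia lists ranged from -0.048 for rods to 0.131 for horizontal cells, without a called gene. Without retinas 1 and 2 they ranged from 0.006 for rods to 0.205 for amacrine cells.

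No gene of the glial and immune lists was called, and the highest sums of several lists were in Sarm1-/- retinas 1 and 2. The 13 pan-reactive astrocyte genes summed to 4487 and 4614 CPM in Sarm1-/- retinas 1 and 2, to 1267 to 2405 CPM in the other 4 and to 1285 to 2413 CPM in WT retinas. No gene was called, and the median log2 fold change of 0.335 became -0.159 without retinas 1 and 2 and was 0.425 with batch 2 alone. Steap4, an inflammation-induced metalloreductase of that list, was at 147 and 118 CPM in retinas 1 and 2 and at 10.1 to 29.3 CPM in the other 9 (log2 fold change 0.92, p = 0.0207, FDR = 0.936). These are the retinas with the high neutrophil and monocyte markers, and the part of those cells in the values was not tested.

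The 24 interferon response genes all had fold changes above 0, with a median of 0.432, where 50.3% of all genes were above 0. None was called, 2 had an unadjusted p under 0.05 (Isg15 with 0.59 and Zbp1 with 0.72), and the intervals of 8 lay between -1 and 1. Their sum was highest in Sarm1-/- retina 2 (1002 CPM) and was 339 to 655 CPM in the other Sarm1-/- and 360 to 562 CPM in WT retinas, so the groups overlapped. Without retinas 1 and 2 the median was 0.100, and 17 of 24 genes were above 0. With batch 2 alone it was 0.285, with 24 of 24 above 0. The 31 genes of TIR adaptors and Toll or IL1 signaling, the family to which SARM1 belongs, had a median of 0.061, and 0 of 31 were called. The median turned to -0.151 without Sarm1-/- retinas 1 and 2, and was 0.103 with batch 2 alone (27 of 31 above 0). The CC chemokines, several of which lie within 5 Mb of Sarm1, had a median of 0.016 over 16 tested genes and none called, with 1 at an unadjusted p under 0.05 (Ccl12). That median was 0.306 with batch 2 alone (13 of 16 above 0) and -0.121 without Sarm1-/- retinas 1 and 2. Ccl2, a monocyte attractant, ranged from 1.29 to 12.2 CPM in Sarm1-/- and from 0.45 to 1.97 CPM in WT retinas (log2 fold change 0.99, 95% interval -0.08 to 2.06, FDR = 0.989), and its highest value was in retina 1.

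No microglial gene was called. The 9 microglia markers all had fold changes below 0, a median of -0.058, and summed to 113 to 145 CPM in Sarm1-/- and 106 to 152 CPM in WT retinas. P2ry12, a receptor of homeostatic microglia, was at -0.22 (95% interval -0.44 to -0.004, p = 0.0456, FDR = 0.989). With batch 2 alone the median of the 9 markers was 0.024, so its sign depended on the WT retinas of batch 1. None of the 18 homeostatic microglia genes (median -0.086), 20 disease-associated microglia genes (0.021), 11 A1 and 12 A2 astrocyte genes (0.300 and 0.260), 23 genes of TNF signaling and necroptosis (0.059) or 24 apoptosis genes (0.008) was called. Without Sarm1-/- retinas 1 and 2 the medians were -0.229 for homeostatic microglia (0 of 18 above 0), -0.084 for disease-associated microglia, -0.200 for the microglia markers, 0.046 for A1, -0.03 for A2, -0.025 for TNF signaling and -0.008 for apoptosis. With batch 2 alone the homeostatic median was 0.035, on the other side of 0. The medians there were 0.094 for disease-associated microglia, 0.204 for A1, 0.267 for A2, 0.049 for TNF signaling (21 of 23 above 0) and 0.05 for apoptosis. The plot of list sums shows the spread within each genotype.

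Sex differences were also compared. In the 81-retina fit, a term set the sex difference of Sarm1-/- PBS retinas against the one pooled over all other groups. It called 2 genes (0.00992%, and 9.68% at an unadjusted p under 0.05), the interferon-induced Gbp2 and Gbp9. The interaction of genotype and sex within the 11 PBS retinas alone called no gene (2.93% at an unadjusted p under 0.05). In both genes the male Sarm1-/- retinas had the higher mean.

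**Figure D5:**
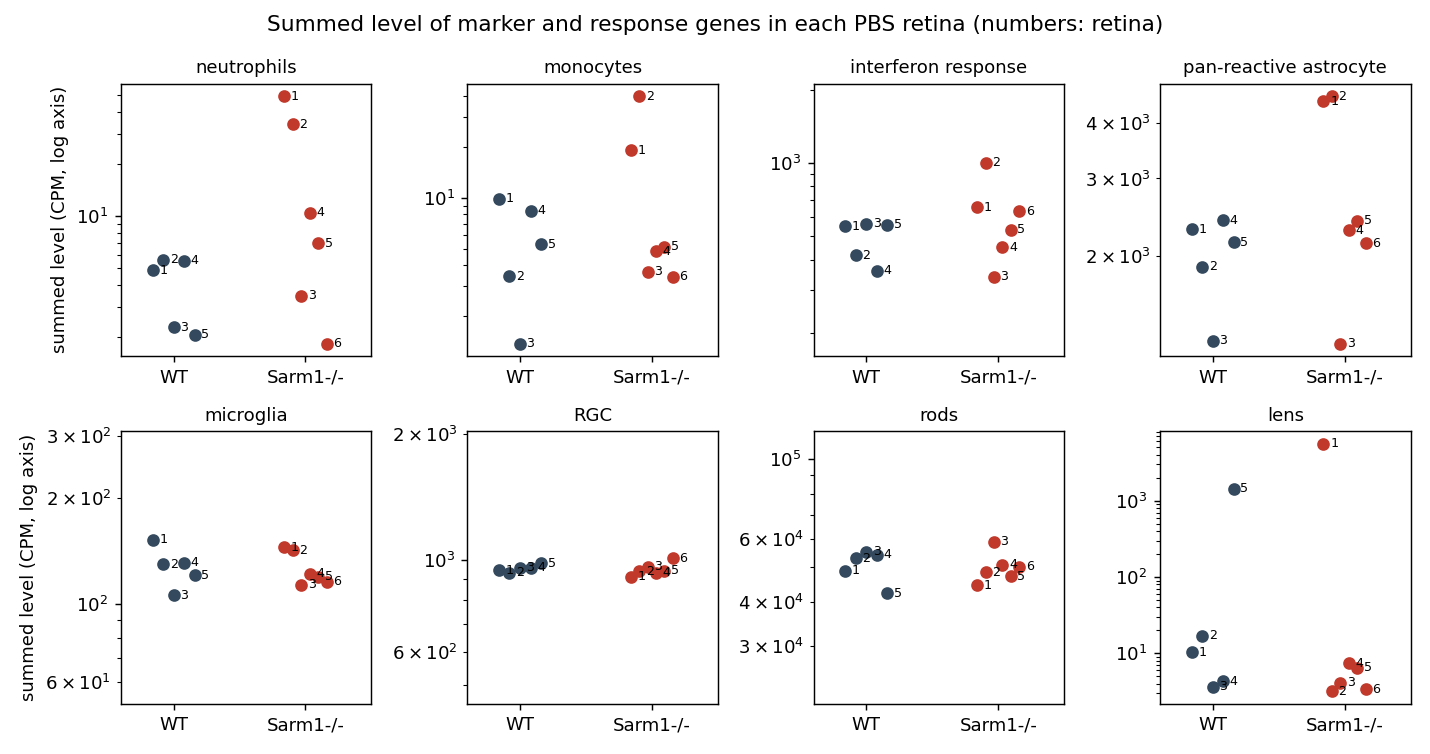
Summed level (CPM, log axis) of the genes of 8 lists in each PBS retina, WT (n = 5) and Sarm1-/- (n = 6), with retina numbers beside the points. Sarm1-/- retinas 1 and 2 are highest for neutrophils, monocytes and pan-reactive astrocyte genes, lens genes are high in Sarm1-/- retina 1 and WT retina 5, and microglia, RGC and rod sums overlap between the genotypes.

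Among genes that were not called, the lowest p-values belonged to small differences. After Champ1, a chromosome alignment protein (51.5 ± 1.97 CPM in WT, 55.8 ± 1.49 CPM in Sarm1-/-, log2 fold change 0.13), came Aasdhppt (0.18, FDR = 0.205), the transcription factor Tshz3 (0.49, FDR = 0.25), the transcriptional repressor Dr1 (0.24, FDR = 0.25) and Tmem33 (0.17, FDR = 0.25). Mecr and Pecr, enzymes of mitochondrial and peroxisomal fatty acid synthesis and elongation, had log2 fold changes of -0.25 and -0.35 (both FDR = 0.25). Tshz3 was above the WT mean in 6 of 6 Sarm1-/- retinas, but WT retinas 4 and 5 (15.4 and 19.2 CPM) were within their range of 14.98 to 19.8 CPM. Without WT retina 5, the highest of the WT group, the FDR was 0.028. With all retinas kept, the FDR of Tshz3 was 0.9999 with batch 2 alone and 0.507 with the 11 PBS retinas. Its log2 fold change in the IL1A+TNF eyes was -0.08.

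Among genes of at least 1 CPM whose groups did not overlap, the larger differences after the called genes were also not significant. They were mt-Atp8, the mitochondrially encoded ATP synthase subunit (11.4 to 13.9 CPM in Sarm1-/-, 6.44 to 10.9 CPM in WT, log2 fold change 0.57, FDR = 0.936), Gm13339 (0.38) and the dopamine receptor Drd5 (0.36). Values below 0 were those of coagulation factor F11 (-0.48, FDR = 0.866) and Gm7420 (-0.43, FDR = 0.989). mt-Atp8 ranged from 3.77 to 42.1 CPM in the WT PBS retinas of batch 1, a wider span than the difference between the genotypes.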

How the data were processed

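Per the labels and methods, polyadenylated RNA of whole retinas was read as 150 bp pairs. The authors aligned the reads to mm10 with STAR 2.7.9a, counted them per gene with featureCounts (Subread 2.0.1) and deposited raw counts for 37315 genes in 109 retinas. The annotation release is not given in the sources used here. Symbols and positions of 35533 genes came from GENCODE M21 (GRCm38). Groups, sex, batch and mouse came from the labels.

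From these counts, R 4.3.3 with limma 3.58.1 and edgeR 4.0.16 was used. Genes were filtered with filterByExpr (minimum count 10, minimum total 15, proportion 0.7, large groups from 10), scaled with TMM and fitted with voom on the 81 day 2 retinas. Terms were group, sex and batch, with mouse as a random block in 2 rounds (correlation 0.00525, and -0.0763 in the 23 batch 2 retinas). P-values were adjusted by Benjamini-Hochberg over all genes tested. Precision at this depth is given by the 95% intervals. Sums of lists include genes below the filter. The script was tested on simulated data. Alternatives included edgeR's quasi-likelihood test, DESeq2 1.42.0, other scalings and filters, batch 2 alone, the 11 PBS retinas alone, and each retina left out. No 2 of the 11 retinas were duplicates (smallest chi-square per gene 11.1).

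Genes named are those called by either limma fit, the 10 next by p, the 5 largest rises and falls without overlap, the 10 nearest to Sarm1, paralogs, and those of lowest p in each list. A gene that this rule names is not reported here. Tulp4, Ezr, Glod4, Gemin4, Mir22hg, Ide and Fgfbp3 were chosen after their values were seen. The members and lists were chosen with earlier results of these data known.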

Additional observations from a re-analysis of the deposited data

Results flagged for a closer look

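Single retinas lay far from the rest of their group for 7 gene levels and 2 marker sums, by the gap to the nearest retina over the range of the group (Dixon's ratio). 54 groups were examined, and chance alone puts about 5% of groups past this limit. Sarm1-/- retina 6 was apart for ENSMUSG00000079733 (7.60 CPM, others 3.81 to 4.28), Dynlt1b (4.27 CPM, others 1.54 to 1.77) and Tmem181b-ps (5.34 CPM, others 2.30 to 3.04). Vps53 was lowest in WT retina 5 (68.3 CPM, others 73.0 to 74.4). Aasdhppt was lowest in Sarm1-/- retina 1 (38.8 CPM, others 41.4 to 41.9), and Ppp1cb, a phosphatase subunit, in WT retina 4 (264 CPM, others 291 to 300). F11 was lowest in Sarm1-/- retina 4 (1.88 CPM, others 2.49 to 2.75). Lens genes were apart in Sarm1-/- retina 1 (5593 CPM) and WT retina 5 (1446 CPM).

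Gbp2 and Gbp9, interferon-induced GTPases, differed between the sexes in Sarm1-/- PBS retinas, beyond the sex difference pooled over all other groups of the fit. This term had an FDR of 0.00413 for both by limma (2 of 20154 genes, 0.00992%). Its log2 value, females minus males, was -1.45 for Gbp2 and -1.20 for Gbp9. Gbp2 measured 7.52, 13.2 and 15.4 CPM in female and 26.4, 49.9 and 24.9 CPM in male Sarm1-/- retinas, against 12.1 and 14.5 CPM on average in female and male WT retinas. Gbp9 averaged 6.85 and 16.1 CPM in female and male Sarm1-/- retinas and 8.15 and 8.55 CPM in WT. Of the 3 male Sarm1-/- retinas, 2 are those with high neutrophil and monocyte markers, and the part of those cells was not tested. Without Sarm1-/- retina 2 or without retina 3, 0 genes passed by limma (784 and 737 at an unadjusted p under 0.05), without retina 5 it was 7 genes, and without retina 6 it was 103 genes. For the interaction of genotype and sex within the 11 PBS retinas alone, 0 genes passed by limma and 551 had an unadjusted p under 0.05. Both Gbp2 and Gbp9 had an FDR of 0.9996 there.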

How the results depend on the processing

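The count of 8 called genes, 5 of them within 10 Mb of Sarm1, depended mostly on whether batch 1 entered the fit. It was 2 (2 within 10 Mb) with batch 2 alone, as it was there without the 2 retinas with neutrophil genes or the 2 with lens genes, and 5 (2) there without both eyes of Sarm1-/- mouse 6. It was 3 (3) with the 11 PBS retinas, and 4 (3) with all retinas but those with neutrophil genes, an alternative chosen after seeing the data like the other exclusions by marker or mouse. Leaving out 1 retina gave 7 to 9 genes (4 to 5 within 10 Mb), and 2 to 4 (2) with batch 2 alone, where the 4 came without Sarm1-/- retina 6. Without the replicate block on mouse the count stayed at 8. No filter gave 11, and sample quality weights 12. The term for sex in Sarm1-/- PBS retinas called 2 genes, and 0 to 103 with 1 retina left out. The interaction of genotype and sex within the 11 PBS retinas called 0. Genotype in IL1A+TNF retinas called 2988 genes, and 129 with batch 2 alone. Of 984 recomputed fold changes of 24 genes, 0 changed sign. These genes were picked by their values in the main fit, and the alternatives reuse its retinas, so a change of sign was unlikely in advance. Of the fold changes no longer called, 90 used batch 2 only and 7 used both batches.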

Other observations

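Ide, the insulin-degrading enzyme (chromosome 19), and its neighbor Fgfbp3 varied between mice and not by genotype. Ide measured 110, 110 and 108 CPM in WT retinas 1 to 3 but 227 and 222 CPM in WT retinas 4 and 5, and the IL1A+TNF eyes of the same mice measured 117, 121, 122, 225 and 205 CPM. In the Sarm1-/- group, retina 3 measured 111 CPM and the other 5 measured 154 to 175 CPM, with 118 CPM and 169 to 222 CPM in their IL1A+TNF eyes. Fgfbp3 was at 3.79 to 4.22 CPM in WT retinas 1 to 3 and at 6.14 and 8.51 CPM in WT retinas 4 and 5. The genotype difference was not significant for Ide (log2 fold change 0.12, limma FDR = 0.99) or Fgfbp3 (0.37, FDR = 0.989).

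Of 6 tested genes listed as variable between C57BL/6 substrains, Ide among them, none was called. Nlrp12 had the largest value (1.27, 95% interval 0.13 to 2.41, p = 0.0289, FDR = 0.973), with 1.68 and 2.27 CPM in Sarm1-/- retinas 1 and 2, 0.191 to 0.491 CPM in the other 4 and 0 to 0.540 CPM in WT retinas. The others lay near 0: Nnt had a log2 fold change of -0.02 (95% interval -0.15 to 0.10), Crb1 of -0.03 (-0.21 to 0.15), Cyfip2 of 0.06 (-0.21 to 0.33) and Wdfy1 of -0.002 (-0.11 to 0.10).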
